A study of Mus musculus with 24 samples.

Results

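Microvascular endothelial cells (MECs), which line the capillaries of an organ, were compared between the retina and the heart of mice without diabetes. Of the 24 regions of tissue that the study profiled, 6 entered this comparison: 3 regions whose titles name non-diabetic retinal MECs (retMECs) and 3 whose titles name non-diabetic cardiac MECs (carMECs). They were chosen by title and by no measured value. The mice were male C57BL/6J littermates of the diabetic animals, were injected with citrate buffer without streptozotocin over 5 days at 8 weeks of age, and gave tissue 2 months later. Diabetic mice, whose regions served as a second set of samples, received streptozotocin, a toxin of pancreatic beta cells, in the same buffer on the same days. There were 3 mice per condition, and which mouse gave which region is not in the labels, so retinal and cardiac regions may share animals and the p-values here do not account for it.

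Capillaries of the retina form the inner blood-retinal barrier. Their endothelial cells are joined by dense tight junctions, carry out little transcytosis and are wrapped by pericytes and glial processes within the neurovascular unit. Capillaries of the heart are also continuous, without fenestrae, but form a less strict barrier and pass fatty acids and other fuel to cardiomyocytes, which lie beside them. CD31, the marker stained here, is an adhesion protein of endothelial cells in both organs. Regions were placed on CD31+ microvessels rather than large vessels in formalin-fixed, paraffin-embedded sections, and barcodes of hybridised probes were released from them with ultraviolet light and counted. A region is a piece of tissue and not a purified cell type, so fewer cells of a type and less RNA per cell cannot be told apart in its counts.

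Each count is the number of unique molecules of 1 probe, and probes are known in the files by an ID only. No ID was paired with a gene in the sources used here, so gene names, sequences and the endothelial, neuronal and cardiomyocyte markers that would check the labels were not analysed here. All 20186 probes seen in the study had a count in at least 1 of the 6 regions, and 16345 had one in all 6. Total counts were 342522, 85657 and 71038 in retMEC regions 1, 2 and 3 and 391604, 211272 and 521366 in carMEC regions 1, 2 and 3. The 3 retMEC regions lay on 1 plate with the diabetic retMEC regions and the 3 carMEC regions on another with the remaining 15. Each plate also had its own sequencing run. Organ, plate and run therefore cannot be told apart in any direct comparison. Wherever the plate is named below, the run goes with it. Aligned reads were 61.0%, 43.4% and 45.9% in the retMEC regions and between 96.05% and 96.74% in the carMEC regions, and the reads behind 1 count were 81.8 to 92.3 in retMEC and 11.5 to 24.8 in carMEC regions. The part of these differences in the results was not tested.

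Counts were on average less concentrated in a few probes in retMEC than in carMEC regions, but the groups overlapped. The 100 most abundant probes of a region held 2.32%, 9.86% and 14.7% of its counts in retMEC regions 1, 2 and 3. In carMEC regions they held 14.3%, 16.8% and 18.0%. The mean difference was -7.43 percentage points for retMECs minus carMECs, with a two-sided exact permutation p of 0.2, where 0.1 is the smallest p that 3 against 3 allows. Region 1 of the retMECs stood apart from the other 5. Its 10 most abundant probes held 0.857% of the counts, against 4.36% and 7.31% in retMEC regions 2 and 3 and 8.31% to 10.8% in carMEC regions. It was nevertheless the most deeply counted of the 3 retMEC regions, with a count of at least 1 for 20175 probes. Without it the difference in the share of the 100 most abundant probes was -4.12 percentage points (two-sided exact permutation p = 0.3). The numbers of calls and the shares of calls seen again in diabetic regions are also given without it, and other values are given per region or as means of all 3 retMEC regions.

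**Figure D1:**
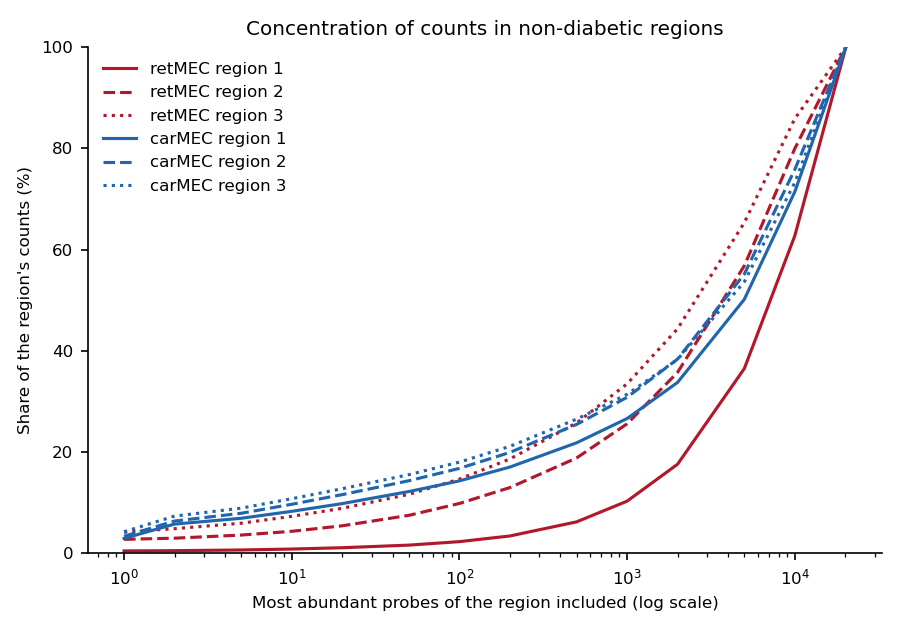
Cumulative share of a region's counts (vertical axis, %) in its most abundant probes (horizontal axis, number of probes, log scale) for the 3 retMEC and 3 carMEC regions without diabetes, 1 line per region. The line of retMEC region 1 runs below the other 5, with 2.32% of counts in its 100 most abundant probes.

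Most of the probes that differed were lower in retMECs than in carMECs. Scaled counts, which are counts divided by the 75th percentile of the region's 20186 probes (20, 5 and 4 counts in retMEC regions 1 to 3 and 19, 10 and 23 in carMEC regions 1 to 3), put all probes tested at a median of 0.683 in retMECs and 0.778 in carMECs. In edgeR's quasi-likelihood test on the counts of the 9 non-diabetic MEC regions, 62 of 18947 probes (0.327%) were higher and 317 (1.67%) lower in retMECs at a Benjamini-Hochberg adjusted p under 0.05, together 2% of the probes tested. The split depended on the scale. With each region's total count as the scale, 181 were higher and 233 lower, so that 43.7% of calls were higher in place of 16.4%, and the median log2 difference over all probes moved from -0.06 to 0.25. DESeq2 called 94 higher and 238 lower, or 28.3% higher. Without retMEC region 1 there were 335 higher and 422 lower, and these held 57 of the 62 and 255 of the 317. Calls in the higher direction fell to 36 without retMEC region 2 and to 41 without carMEC region 3.

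The 62 higher probes were raised in each retMEC region and least in region 1. Their median scaled counts were 1.5, 3.6 and 4.25 in retMEC regions 1, 2 and 3. In carMEC regions they were 0.711, 0.75 and 0.696. Region 1 had the lowest of the 3 retMEC values for 56 of the 62. Every retMEC region was above every carMEC region in scaled counts for 59 of the 62 and for 3.62% of all tested probes, but the 62 were called on these same regions, so this restates the call. Together they held 0.679%, 2.15% and 2.66% of counts in retMEC regions 1, 2 and 3, a mean of 1.83% ± 1.03 (SD, n = 3), and 0.241% ± 0.011 in carMECs.

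The 317 lower probes held a far larger part of the heart's counts. They made up 14.6% ± 2.0 (SD, n = 3) of counts in carMECs and 1.95% ± 0.30 in retMECs. The 14.6% includes RTS0067474, a probe without a count on the retMEC plate. It alone held 2.96%, 3.37% and 4.27% of counts in carMEC regions 1, 2 and 3. Median scaled counts of the 317 were 0.85, 0.8 and 0.75 in retMEC regions 1 to 3, close to the median of all tested probes in those regions (0.8, 0.6 and 0.5). In carMEC regions 1 to 3 they were 3.42, 3.90 and 4.74. Every retMEC region was below every carMEC region for 315 of the 317 and for 10.3% of all tested probes, which again restates the call. Of the 317, 7 had no count in any retMEC region. Counting these at the bound that 3 counts over the group allow, 171 of the 317 differed by over 4-fold and 22 by over 16-fold.

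**Figure D2:**
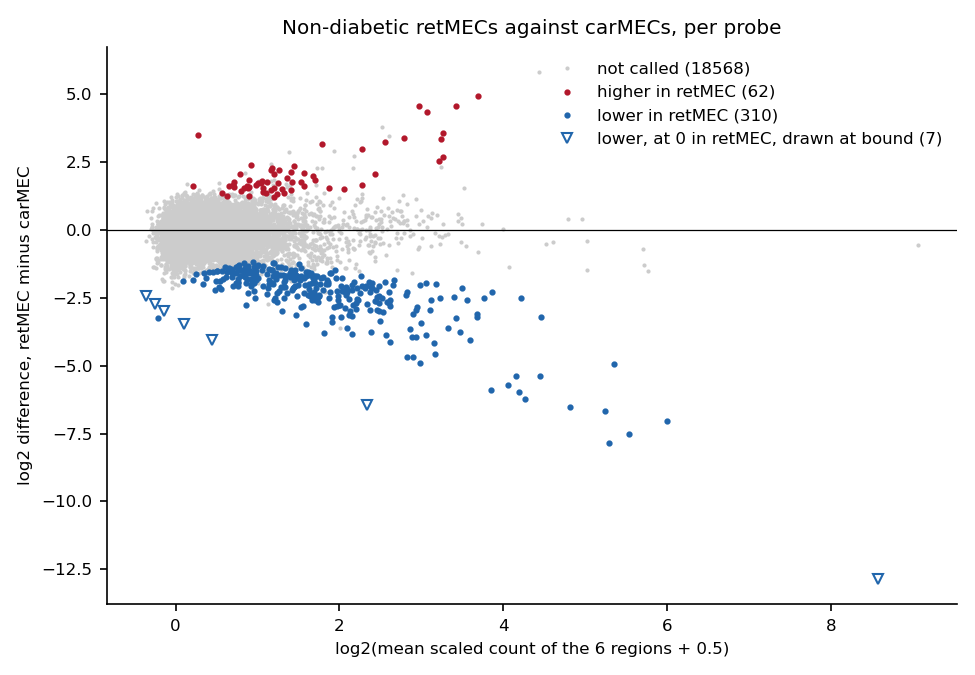
Log2 difference between retMECs and carMECs from edgeR (vertical axis, above 0 is higher in retMECs) against log2(mean scaled count of the 6 regions + 0.5) for each of 18947 probes, with the 62 higher probes in red and the 317 lower in blue. The 7 lower probes at 0 in every retMEC region are open triangles drawn at the bound for 3 counts over the group. Lower calls reach larger differences than higher calls, and the largest of them lie at abundant probes.

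The higher probe with the smallest p, RTS0075344, was high in all 6 retMEC regions of the study and low in the other 18, so that retMECs and their plate cannot be told apart for it. Its scaled counts were 4.65, 21.2 and 33.3 in retMEC regions 1, 2 and 3, from 93, 106 and 133 counts. They were 0.579, 0.900 and 0.913 in carMEC regions 1, 2 and 3, from 11, 9 and 21 counts. The groups did not overlap, and region 1 was the lowest of the retMEC regions. The log2 difference was 4.58 (SE 0.51), with an edgeR adjusted p of 2.67e-09. In diabetic mice the 3 retMEC regions lay between 23.8 and 38.5 and the heart regions between 0.667 and 0.833, a log2 difference of 5.21 with an edgeR adjusted p of 5.19e-14. Neuronal (NeuN+) regions of the retina, on the plate of the heart, had 0.514 to 0.818 without and 0 to 0.714 with diabetes. Renal MEC (renMEC) regions had at most 0.727.

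A second higher probe, RTS0075527, was higher than in the heart in both kinds of retinal region, MEC and neuronal. It had scaled counts of 3.70, 13.6 and 18.0 in retMEC regions 1, 2 and 3. The carMEC regions had 1.00, 1.10 and 1.09, below every retMEC region. The log2 difference was 3.39 (SE 0.42), with an edgeR adjusted p of 3.64e-08. Diabetic retMEC regions had 2.5 to 9.0 and diabetic heart regions 0.667 to 0.875, a log2 difference of 2.93 with an edgeR adjusted p of 1.45e-06. Within the plate of the heart, diabetic neuronal regions had 1.75 to 3.29, a log2 difference from heart of 1.72 with an edgeR adjusted p of 0.00169. Non-diabetic neuronal regions had 3.69 to 5.18.

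The lower probe RTS0061518 was abundant in regions of the heart and of no other organ. It had scaled counts of 0.400, 0.400 and 0 in retMEC regions 1, 2 and 3, from 8, 2 and 0 counts. In carMEC regions 1, 2 and 3 it had 57.4, 76.8 and 98.0, from 1090, 768 and 2255 counts, and was among the 8 most abundant probes of each. The log2 difference was -7.85 (SE 0.74), with an edgeR adjusted p of 2.66e-11. Diabetic heart regions had 50.8 to 61.0, while diabetic retMEC regions had 0.200 to 2.00. Neuronal and renMEC regions of the same plate as the heart had at most 0.75 and 1.0, and diabetic neuronal regions were below diabetic heart, with a log2 difference of -6.44 and an edgeR adjusted p of 8.46e-16.

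The other lower probe, RTS0067474, was absent from the retMEC plate. It had 0 counts in all 3 non-diabetic and all 3 diabetic retMEC regions. In carMEC regions 1, 2 and 3 it was the most abundant probe, with 11596, 7125 and 22248 counts and scaled counts of 610.3, 712.5 and 967.3. Against a floor of 3 counts over the 3 retMEC regions, it was at least 7379-fold lower in retMECs, with an edgeR adjusted p of 2.66e-11. It was also counted in each of the other 15 regions of the carMEC plate, at scaled counts of 515.4 to 657.3 in diabetic heart regions and 953.7 to 1646 in non-diabetic renMEC regions. In neuronal regions, which are retina on that plate, it lay between 234.4 and 350.8, and diabetic neuronal regions differed from diabetic heart by a log2 of -0.99 (SE 0.39, edgeR adjusted p = 0.0362). No count of this probe was made on the retMEC plate, so its zero in retMECs cannot be told apart from the plate.

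**Figure D3:**
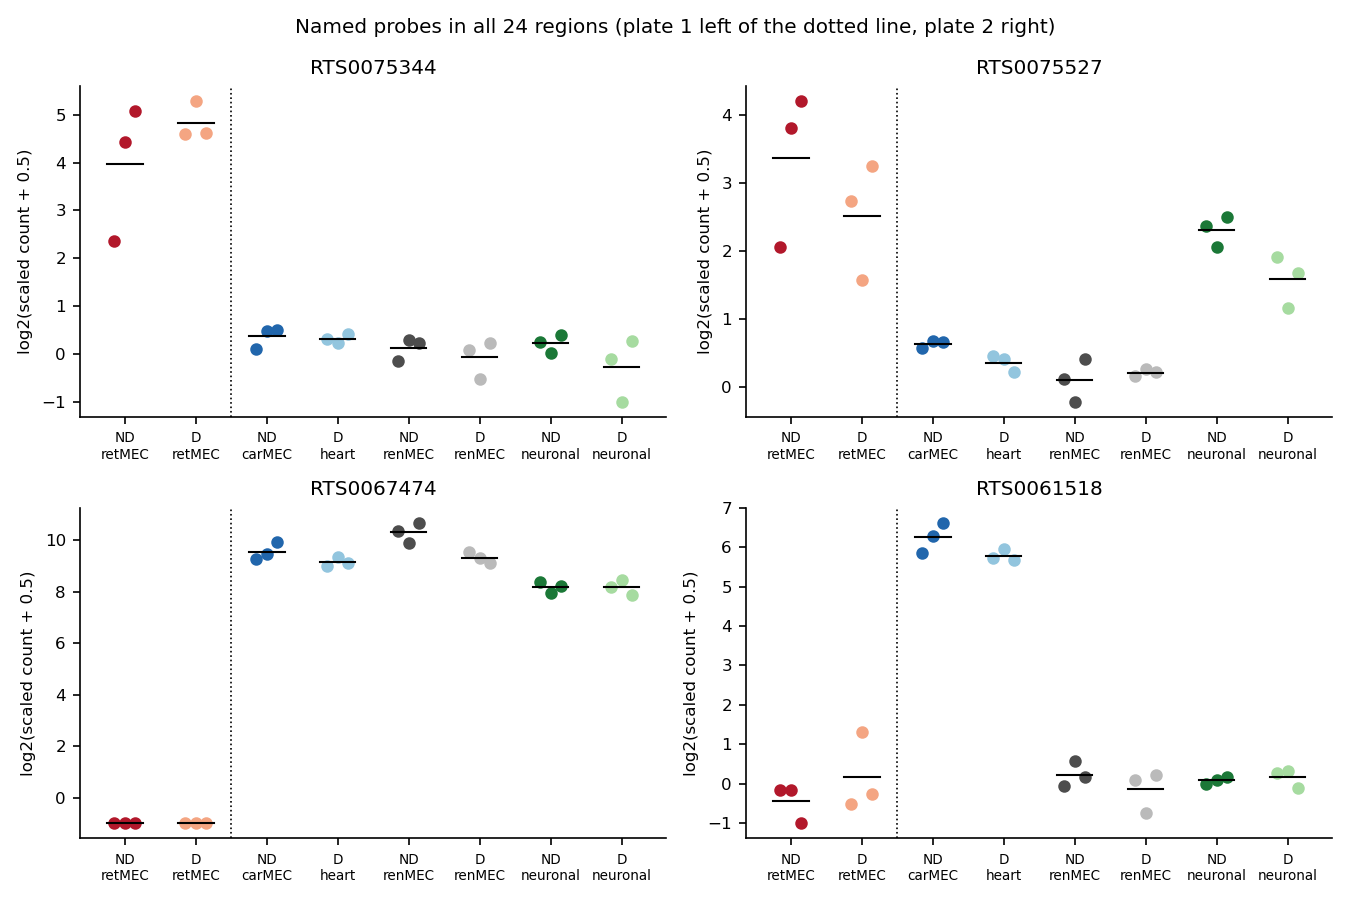
Scaled counts of the 4 named probes, as log2(scaled count + 0.5), in all 24 regions. Points are single regions in the order of their replicate numbers, bars are means of the 3 points, ND is non-diabetic and D diabetic, and the dotted line separates the plate of the retMEC regions (left) from the other plate (right). RTS0075344 is high in the 6 retMEC regions, RTS0075527 in retMEC and neuronal regions and RTS0061518 in the 6 heart regions, while RTS0067474 is high in all 18 regions right of the line and at 0 in the 6 left of it.

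In all, 11 probes were listed in no region of the retMEC plate, and 8 of the 11 were listed in all 18 regions of the other plate. Of the 11, 7 were tested and all 7 were called lower in retMECs. They are the same 7 that had no count in retMECs. After RTS0067474, the next most abundant of the 11 had a mean scaled count of 23.7 over the 18 regions, with 7.78 to 11.6 in carMEC regions, 34.1 to 59.8 in renMEC regions and 13.0 to 17.5 in neuronal regions, and the third had 1.75. In the other direction, 1 probe was listed in no region of the carMEC plate. Without the 11, the calls were 62 higher and 310 lower, and the difference in the share of the 100 most abundant probes shrank to -4.42 percentage points (two-sided exact permutation p = 0.4).

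The most abundant probe of all 3 retMEC regions was not among the calls. It had scaled counts of 83.0, 475.2 and 742.8 in retMEC regions 1, 2 and 3. In carMEC regions it ranked second in each, with values of 581.5 to 701.9. The groups overlapped, with a log2 difference of -0.56 (SE 0.68, edgeR adjusted p = 0.911). The largest fitted difference towards retMECs of any probe belonged to one counted 493 times in region 3 and 13 and 2 times in regions 1 and 2, a log2 difference of 5.81 with an SE of 2.20 and an edgeR adjusted p of 0.479. In the other 21 regions of the study its scaled count was at most 1.5. Both probes were chosen after their values were seen.

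Ranks within a region do not depend on how plates are scaled against each other. Ranks over a fixed set of probes have the same sum in every region, so shifts up and down balance in total size, though not in number. The split of calls between directions therefore cannot tell whether probes were on the whole higher in 1 organ. The 1000 probes with the highest mean share of counts over the 6 regions were ranked in each region. Of these, 253 ranked higher and 233 lower in retMECs by limma on normal scores of the ranks, together 48.6% of the 1000, at an adjusted p under 0.05. A probe high in 1 group enters the 1000 through its mean, so this percentage describes abundant probes that were admitted by either organ. Ranks of the groups did not overlap for 327 probes (32.7%) higher and 267 (26.7%) lower in retMECs. Mean ranks differed by over 500 places for 69 probes higher and 133 lower in retMECs. Leaving out any 1 of the 6 regions gave 344 to 553 calls, with 553 without retMEC region 1.

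The order of abundant probes was more alike between carMEC regions than between retMEC regions. Spearman's rho over the 1000 probes was 0.914 to 0.917 between carMEC regions and 0.571 to 0.731 between retMEC regions, with the highest of these between regions 2 and 3. Between a retMEC and a carMEC region it was -0.111 to 0.081. These are descriptions over 1000 probes of shared libraries that were selected by their abundance in the same regions, and a probe high in either organ was admitted. Over all 20186 probes, rho was 0.466 to 0.540 between carMEC regions and 0.256 to 0.388 between a retMEC and a carMEC region. RetMEC region 1 had 0.266 with region 2 and 0.258 with region 3, within the range between organs. Regions 2 and 3 of the retMECs had 0.409, above every pair of different organs. The median count of a probe was 3 and 2 in retMEC regions 2 and 3, and the part of such low counts in these values was not tested. Of the 100 most abundant probes, carMEC regions shared 87 or 88 pairwise, retMEC regions 69 to 78, and a retMEC with a carMEC region 24 to 33. The 100 probes with the highest mean ranks in retMECs had a median mean rank of 190.8 in carMECs, while the 100 highest of carMECs had a median of 540.1 in retMECs, and 28 probes belonged to both sets.

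The 4 named probes showed the same order on ranks. RTS0075344 ranked 13, 11 and 12 among the 1000 in retMEC regions 1, 2 and 3 and from 950 to 985.5 in carMEC regions. RTS0075527 ranked 19.5, 26 and 28 in retMEC regions and from 917.5 to 936.5 in carMEC regions. RTS0061518 ranked 8, 8 and 5 in carMEC regions and 973.5 to 996.5 in retMEC regions. RTS0067474 ranked 1 in each carMEC region and 995.5 to 999.5, its place as a probe with no count, in retMEC regions. Of the 1000 probes, edgeR had called 39 higher and 212 lower in retMECs, and ranks of the groups did not overlap for all 39 and for 207 of the 212, beside 32.7% and 26.7% of the 1000. Ranks and edgeR calls came from the same counts, so the overlap is no second line of evidence. Among the 486 rank calls, 243 were edgeR calls in the same direction.

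**Figure D4:**
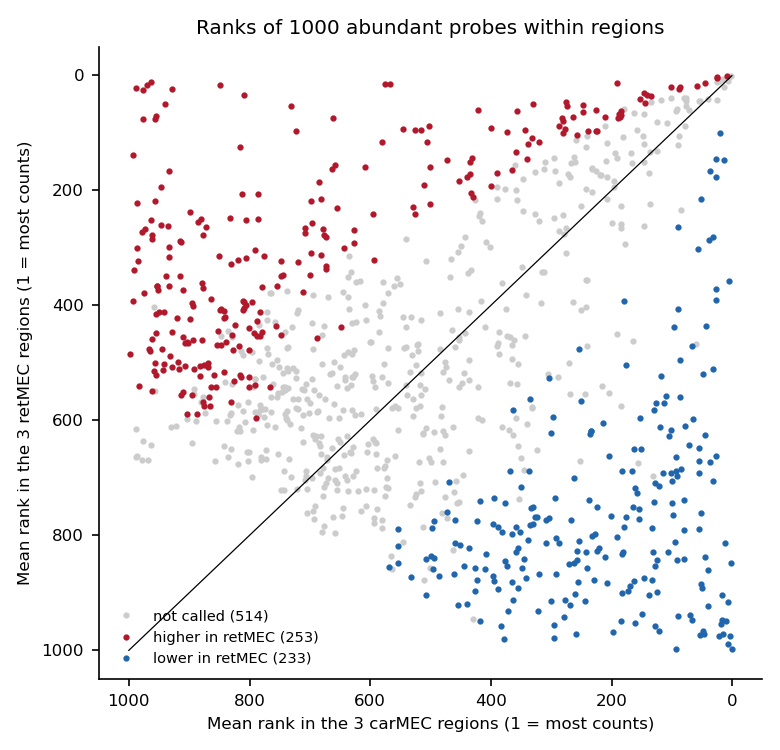
Mean rank of each of the 1000 abundant probes in the 3 retMEC regions (vertical axis) and the 3 carMEC regions (horizontal axis), where 1 is the probe with the most counts, with the line of equal rank. Red points (253) ranked higher and blue points (233) lower in retMECs by limma, and 514 grey points were not called. The top left and bottom right hold probes that were abundant in 1 organ and near the end of the order in the other.

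The leading probes of each organ were also set against the other organ, as a description, since they were picked in the regions that gave the calls. The 20 probes with the highest mean share in carMECs held 9.81%, 11.6% and 12.8% of counts in carMEC regions 1, 2 and 3. Among them was RTS0067474, unseen on the retMEC plate, with 2.96%, 3.37% and 4.27%. In retMEC regions 1, 2 and 3 the same 20 held 0.761%, 3.70% and 5.77%, and 14 of the 20 were called lower in retMECs, as were 1.67% of all tested probes. The 20 leading probes of retMECs held 1.06%, 5.25% and 8.76% of counts in retMEC regions 1, 2 and 3 and 4.57% to 5.32% in carMEC regions, and 7 of the 20 were called higher in retMECs, as were 0.327% of all tested probes. The lists had 6 probes in common. Heart regions of diabetic mice gave the 20 carMEC probes 11.4% to 12.8% of their counts.

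Whether the calls were seen again was asked in regions that had not been used for them. Diabetic retMEC and heart regions repeat the organs and the plates in other mice. Diabetic neuronal and heart regions compare retina and heart within 1 plate, though with neurons in place of MECs. Titles of diabetic heart regions 2 and 3 name the heart without MECs, so the group is called heart here. Both comparisons come from 1 edgeR model of the 12 diabetic regions and share the 3 heart regions. Their own calls were 254 higher and 224 lower of 3295 probes for retMECs against heart, and 912 higher and 479 lower (42.2% of the 3295) for neuronal regions against heart. Under total-count scaling these splits were 462 to 199 and 734 to 632, and with DESeq2 102 to 241 and 494 to 601. The first comparison had 242 calls in place of 478 without diabetic retMEC region 1 and 313 without diabetic heart region 2.

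Of the 62 probes higher in non-diabetic retMECs, 36 (58.1%) were also called higher in diabetic retMECs than in diabetic heart and 0 lower, where 7.71% of all probes tested were called higher. In that comparison 13 of the 62 were not tested, because of its filter on low counts. Every diabetic retMEC region was above every diabetic heart region for 38 of the 62 (61.3%), against 3.95% of the 18947 probes. In diabetic neuronal regions against heart, 34 of the 62 were called higher, where 27.7% of all probes were, 3 were called lower and 12 were tested without a call. Every neuronal region was above every heart region for 35 (56.5%), against 9.87% of all. Both diabetic comparisons called 25 of the 62 higher, 11 were called higher for retMECs alone and 9 for neuronal regions alone. These joint counts have no share of all probes beside them, and the comparisons share the heart regions, so nothing is concluded from them. Of the 335 probes that were higher without retMEC region 1, 37.3% were called higher in diabetic retMECs and 48.7% in neuronal regions than in heart. Regions did not overlap in that direction for 38.8% and 52.5%, against 4.36% and 10.8% of all probes tested without retMEC region 1.

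The 317 lower probes were likewise seen again in part. In diabetic retMECs 181 (57.1%) were called lower than in diabetic heart, against 6.8% of all probes tested, and 2 were called higher. These 181 were 80.8% of all lower calls of that comparison. Every diabetic retMEC region was below every heart region for 237 (74.8%), against 12% of all. Within 1 plate, diabetic neuronal regions were lower than heart for 212 (66.9%), where 14.5% of all probes were called lower, and higher for 2, with 53 tested but not called and 50 not tested. The groups did not overlap in that direction for 253 (79.8%), against 11.9% of all. Both diabetic comparisons called 163 of the 317 lower, with 18 called lower for retMECs alone and 49 for neuronal regions alone. Here too the joint counts have no share of all probes beside them, and the heart regions are shared. In a test of the difference between conditions in 1 edgeR model of all 24 regions, 0.106% of probes were called, among them 0 of the 62 and 2 of the 317. Of the 422 probes lower without retMEC region 1, 42.7% were called lower in diabetic retMECs and 46.4% in neuronal regions. Regions did not overlap in that direction for 58.3% in either comparison, against 11.8% and 12.1% of all probes tested without region 1.

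The other groups showed the probes higher in retMECs to be shared in part with neuronal tissue. Those 62 probes held 6.56% ± 0.63 (SD, n = 3) of counts in non-diabetic and 7.76% ± 0.85 in diabetic neuronal regions, above the 1.83% ± 1.03 of retMECs. The median of their group mean scaled counts went the other way, at 2.24 and 2.13 in non-diabetic and diabetic neuronal regions against 2.98 in retMECs. Upper quartiles were 9.49 and 9.45 against 4.78, so the larger neuronal share came from a part of the 62. Every non-diabetic neuronal region was above every carMEC region for 43 of the 62, against 12.7% of all tested probes, though the 62 had been selected for low values in these same carMEC regions. Of the 62, 29 had a mean scaled count in neuronal regions above that in retMECs. For 11 of the 62 no neuronal region exceeded the highest carMEC region, and RTS0075344 was one of these. Neuronal markers could not be read from the IDs, and the part of neighbouring neurons in the retMEC counts was not tested. In non-diabetic renMECs the 62 held 0.453% ± 0.017 of counts, and their median over the probes of the group mean scaled count was 0.573, against 2.98 in retMECs and 0.687 in carMECs. Every non-diabetic renMEC region was nevertheless above every carMEC region for 20 of the 62, against 13.4% of all tested probes. The reverse held for 12, against 26.1% of all. Selection for low carMEC values favours the higher direction here too.

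Probes lower in retMECs were low in neuronal regions and intermediate in the kidney. Median group means of the 317 were 4.06 in carMECs, 3.67 in diabetic heart, 1.88 and 1.52 in non-diabetic and diabetic renMECs, and 1.09 and 0.905 in non-diabetic and diabetic neuronal regions, against 0.867 in non-diabetic and 1.13 in diabetic retMECs. Every non-diabetic neuronal region was below every carMEC region for 283 of the 317, against 19.9% of all tested probes. Every non-diabetic renMEC region was below every carMEC region for 172 of the 317, against 26.1% of all, and above for 30, against 13.4% of all. The 317 had been selected for high values in these same carMEC regions, which favours the lower direction here. Cardiomyocytes, which lie beside the capillaries of the heart, could not be assessed without gene names, and their part in the carMEC counts was not tested.

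**Figure D5:**
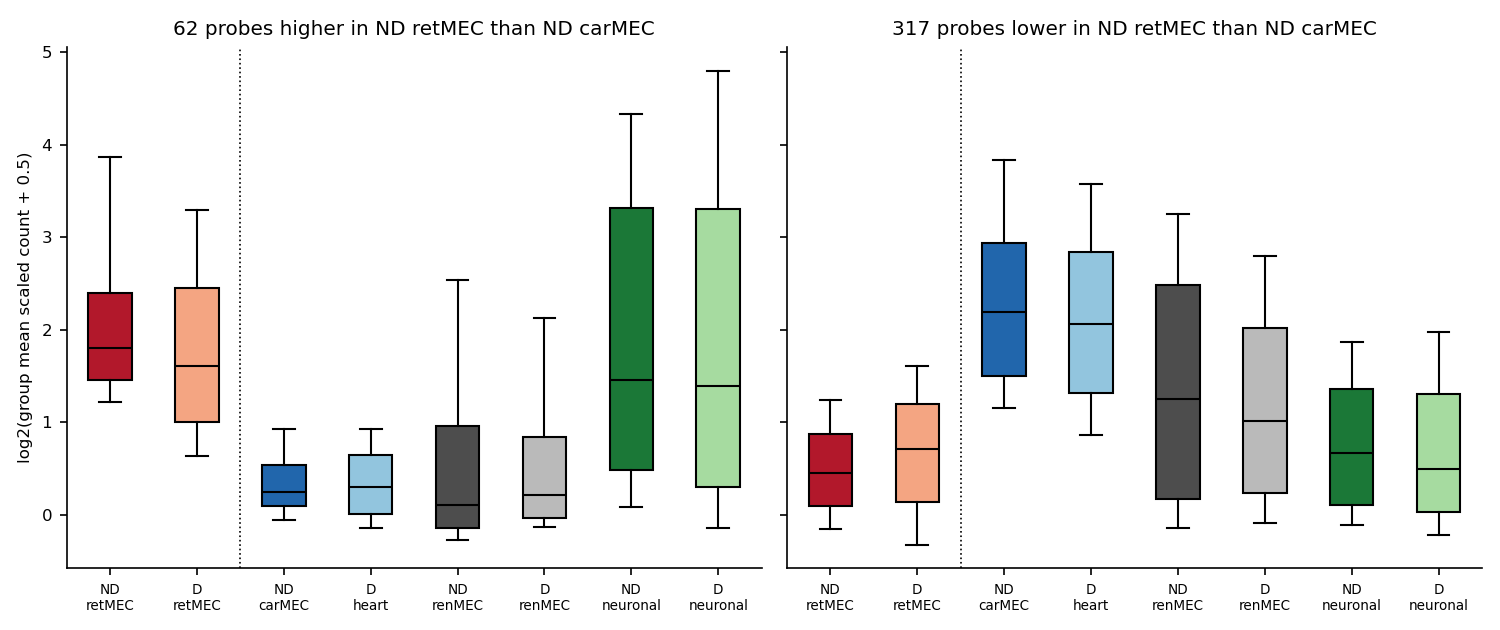
Group mean scaled counts, as log2(mean + 0.5), of the 62 probes higher (left) and the 317 lower (right) in non-diabetic retMECs than carMECs, in the 8 groups of the study with 3 regions each. Boxes span the quartiles over probes with the median as a line, whiskers the 10th to 90th percentile, and the dotted line separates the plates. The 62 are also high in diabetic retMECs and, for many probes, in neuronal regions, and the 317 are highest in the heart with renMECs between heart and retina.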

How the data were processed

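The deposited values are counts per probe and region, made by the authors with GeoMx NGS Pipeline 2.3.4 per the submitters' processing notes, which trimmed and stitched reads, aligned them to probe barcodes and merged molecular identifiers. The quality control, exclusion of genes and 75th percentile scaling of the methods are not in these counts. Unlisted probes were set to 0. Groups came from sample titles. Gene symbols were paired with 0 of the 20186 IDs, so named probes are the 2 higher and 2 lower calls with the smallest p whose groups did not overlap. The members and lists were chosen with earlier results of these data known.

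Main tests were edgeR 4.0.16 (quasi-likelihood, robust, upper-quartile factors, filter at a minimum of 10 counts) in R 4.3.3, limma 3.58.1 on ranks and exact permutation. DESeq2 1.42.0, TMM, total counts, other filters, models and list sizes, thinning, sample weights, the methods' t-test, a replicate block and leaving out each region were alternatives. Leaving out the 11 probes unseen on the retMEC plate, and repeats of later results without retMEC region 1, were chosen after seeing the data. Replicates were separate libraries, with a chi-square per degree of freedom of at least 1.09 between any pair of regions of 1 group. The study gives 3 regions per organ and 3 mice per condition without matching them region by region, and p-values measure the spread between regions. Total counts of 71038 to 521366 put the 75th percentile at 4 to 23 counts, so most single probes of retMEC regions 2 and 3 rest on few counts.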

Additional observations from a re-analysis of the deposited data

Results flagged for a closer look

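The difference between retina and heart was itself compared between conditions, as retMECs minus heart without diabetes less the same with diabetes, in 1 edgeR model of all 24 regions. Of 11299 probes tested, 12 (0.106%) passed an adjusted p under 0.05, and in all 12 the value of retMECs minus heart was lower without diabetes. At an unadjusted p under 0.05 there were 836. Of the 376 non-diabetic calls that were tested, 2 were among the 12, both from the probes lower in retMECs. Without non-diabetic retMEC region 1 the number was 7, of which 6 were in the same direction.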

How the results depend on the processing

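The 4 named probes kept their direction and an adjusted p under 0.05 in every edgeR, DESeq2 and limma voom alternative that included them. They did not keep it in the methods' t-test, where no probe passed after Benjamini-Hochberg adjustment. The main edgeR model takes part of its estimate of spread from the renMEC regions. With the 6 compared regions alone, edgeR adjusted p of the 4 was 4.49e-07 to 0.00123, in place of 2.66e-11 to 3.64e-08. The 379 calls between non-diabetic retMECs and carMECs became 197 (32 higher, 165 lower) when the 6 compared regions were thinned to 71038 counts each. The renMEC regions of the model were not thinned, and 1249 probes were left to test. With limma voom and sample quality weights there were 990 calls (378 higher, 612 lower). The methods' t-test, at its unadjusted p under 0.05 and a fold over 1.5, gave 1425 (224 higher, 1201 lower), and 0 remained after Benjamini-Hochberg adjustment. The causes of these changes were not tested. Leaving out 1 region gave 269 to 757 calls for this comparison, with the highest number without retMEC region 1, and 242 to 453 for diabetic retMECs against heart. Without retMEC region 1, the share of higher calls seen again without overlap in diabetic retMECs and heart was 38.8% in place of 61.3%, and the calls on the difference between conditions were 7 in place of 12. The other 60 alternative values of counts and shares stayed within 1.5 times the main count or kept their direction.

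Deviations of same-numbered regions from their group means had correlations of -0.07, 0.01 and -0.10 for numbers 1, 2 and 3 of non-diabetic retMECs and carMECs. Pairs of different numbers had -0.08 to 0.14. With so few pairs and few counts per probe, these values cannot decide whether same-numbered regions came from the same mouse. With the replicate number as a block, the non-diabetic comparison had 353 calls, the ranks 443, diabetic retMECs against heart 453 and diabetic neuronal regions against heart 1374.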
